A study of Canis lupus familiaris with 20 samples.

Results

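Genes that were silent in the cells of a single dog osteosarcoma line were examined, to learn whether that line's exosomes nevertheless held counts of them. Members were chosen by their read counts in cells. A gene was taken when it stood under 0.5 CPM (counts scaled to a common library total) in both cell libraries of exactly 1 line and at 5 CPM or more in all 6 cell libraries of the other 3 lines. Of 24579 genes, 57 met this rule. The silent line was OS-2 for 54 of them, OSCA-78 for 2 and OSCA-8 for 1, while 0 genes were silent in OS-1 cells alone. Since cell counts made the choice, cell levels are described below without a test, and the comparisons rest on exosome counts, which the rule did not use.

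The data were RNA-seq counts from lines of dog osteosarcoma, a malignant bone tumour. Of the lines OSCA-8, OSCA-78, OS-2 and OS-1, cells were sequenced in 2 libraries per line. Exosomes taken from the supernatants were sequenced in 4 OS-1 libraries and in 2 libraries per line for OSCA-8, OSCA-32, OSCA-78 and OS-2, and OSCA-32 has no cell libraries here. The labels name no genotype, drug or time point for any line. Nor do they state that replicates were grown separately, and the spread behind each p-value may be technical. Genes carry Ensembl identifiers that the files do not pair with names, so neither gene functions nor bone marker genes could be checked, and genome positions were not analysed here.

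Exosomes are small membrane vesicles that cells release, and they carry a selection of the RNA of the parent cell. A gene can be silent because its DNA was lost from a tumour line or because the DNA is present but not transcribed. Cells that lack the DNA on both chromosome copies have no template from which that gene's RNA could be made, whereas a gene that is merely repressed can be transcribed at a trace level. Cancer cell lines are known for both kinds of silence.

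Depth differed between the fractions. Cell libraries held 7728553 to 13301840 counts and exosome libraries 259078 to 481487. With 3 counts as the limit, a gene without counts could stand at up to 0.226 to 0.388 CPM in cells, depending on the library, and at up to 6.23 to 11.6 CPM in exosomes. OS-2 exosomes stood apart: the 7 genes that exceeded 1% of any exosome library took 55.6% and 60.9% of their counts, against 0.750% to 27.4% in the exosomes of OS-1, OSCA-78 and OSCA-8. A larger part of the library total in these genes lowers the CPM of the rest, so OS-2 levels in exosomes are also given with another scaling. The labels give cells and exosomes the same preparation, an exosome enrichment reagent and an exosome RNA kit, so how cell RNA was taken is not clear from them.

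Together, the 54 genes silent in OS-2 cells made 812 and 910 CPM in the OS-1 cell libraries, 1206 and 1162 CPM in OSCA-78 and 943 and 1090 CPM in OSCA-8. In OS-2 cells they made 12.7 CPM in replicate A and 2.91 CPM in replicate B. These are 1.25% and 0.285% of the mean of the other lines' cells. Most of them thus had trace counts rather than none in OS-2 cells, but mainly in replicate A. Fewer cells with the RNA cannot be told apart from less RNA per cell in bulk libraries. Where these trace counts came from was not tested. In OS-2 cells 47 of the 54 had at least 1 count, 43 of them in replicate A and 13 in replicate B, and the other 7 had none. The summed counts were 143 and 37, while the 8901 genes under 0.5 CPM in all 8 cell libraries stood at 151.7 and 140.4 CPM in the same libraries (1702 and 1785 counts). In the other lines' cells the members were moderately expressed, with mean levels from 7.11 to 68.2 CPM and a median of 14.3 CPM.

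The limits of the rule decide how many genes there are. In OS-2 the highest cell level just inside the silent limit was 0.446 CPM and the lowest just outside was 0.535 CPM, with 49 further genes between 0.5 and 1 CPM. At the expressed limit the nearest values were 5.05 CPM inside and 4.94 CPM outside. In OS-1 no gene came near in both libraries, since the lowest candidate stood at 2.05 CPM in the higher of its OS-1 libraries. Single libraries weighed on the count. Without OS-2 cell replicate A the rule took 184 genes, without OS-1 replicate A 88, of which 19 were silent in OS-1, and without OS-1 replicate B 114.

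OS-2 exosomes held at least 1 count of 49 of the 54 genes silent in OS-2 cells (90.7%), where the share over all 24579 genes was 79.2%. Replicate 1 held 48 of them and replicate 2 held 42, and 41 were in both. Of the 7 members without any OS-2 cell count, 5 were present in OS-2 exosomes, with 41 counts in all. By class, 51.9% of the 8901 genes silent in all 8 cell libraries and 99.5% of the 8619 genes at 5 CPM or more in all 8 had a count in OS-2 exosomes. These shares depend on exosome level, for which the classes were not matched. In OS-2 exosomes it was 8.73 CPM per gene for the members, 3.69 for genes silent in all 8 and 86.3 for those expressed in all 8. Where the members' counts in OS-2 exosomes came from was not tested.

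Their summed level in OS-2 exosomes was nonetheless lower than in every other exosome library. Summed over the 54 genes it was 592 CPM in OS-2 replicate 1 (285 counts, exact Poisson 95% interval 525 to 665 CPM) and 351 CPM in replicate 2 (159 counts, 298 to 410 CPM). The 4 OS-1 libraries held 2505, 2539, 3054 and 2964 CPM, the OSCA-78 libraries 2173 and 2773 CPM, and the OSCA-8 libraries 1794 and 2179 CPM. OSCA-32 exosomes, whose cells were not measured, held 2785 and 2988 CPM and lay within the range of the 3 lines that express the genes. The OS-2 libraries did not overlap with any of them. As a mean of 471 ± 171 CPM (SD, n = 2), the OS-2 level was 0.196 of the mean of the other 3 lines. That ratio was 0.399 without the 7 genes over 1% of an exosome library and 0.544 with TMM library sizes, so its size depends on how the dominant genes are treated.

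**Figure D1:**
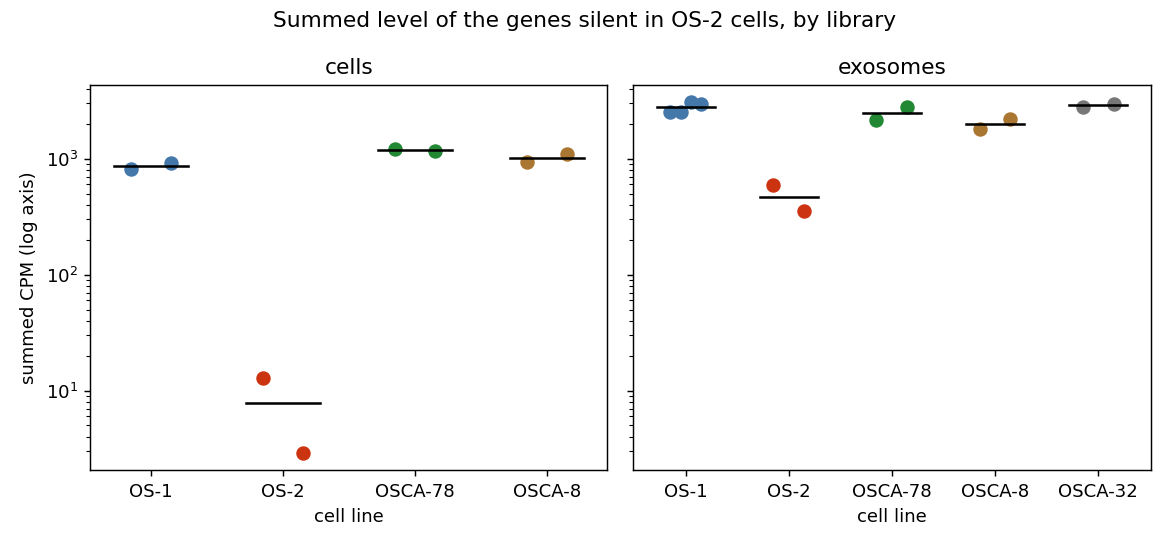
Summed CPM of the 54 genes silent in OS-2 cells, on a log axis, for each cell library (left) and exosome library (right) by line. Points are libraries and bars are means. OS-2 falls to 12.7 and 2.91 CPM in cells but to 592 and 351 CPM in exosomes.

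The rule fixed the low level in OS-2 cells but not that in exosomes. The exosome level per gene exceeded the cell level per gene in each line for these members, being 3.21 times the cell level in OS-1, 2.09 times in OSCA-78, 1.95 times in OSCA-8 and 60.2 times in OS-2. The OS-2 ratio is raised by that rule and is a description. Genes expressed in all 8 cell libraries went the other way, with exosome to cell ratios of 0.602 to 0.788. For genes silent in all 8 the ratio was 225 in OS-2 and 578 to 855 in the other 3 lines. Those ratios too are raised by a choice on cell counts. Of the 54 members, 39 (72.2%) had a higher mean CPM in the exosomes than in the cells of the other 3 lines. Over all 4 lines the same held for 2840 of the 8619 genes expressed in all 8 (33.0%). The classes were not matched for cell level. Per gene it was 15.9 to 21.9 CPM for the members in the other 3 lines and 108 to 110 CPM for genes expressed in all 8.

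The members were set beside genes that no line's cells expressed. The 8901 genes silent in all 8 cell libraries stood in OS-2 exosomes at 0.260 of their level in the exosomes of the other 3 lines, where the members stood at 0.196. The 8619 genes expressed in all 8 stood at 1.26. With TMM library sizes the 3 ratios were 0.726 for the genes silent everywhere, 0.544 for the members and 3.46 for the genes expressed everywhere. Without the 7 dominant genes they were 0.486, 0.399 and 1.35. A change of library total moves all classes of a library alike, so the TMM ratios are not a separate comparison. Leaving out the 7 genes did not move the classes alike. The members rose from 0.196 to 0.399, but the genes expressed everywhere only from 1.26 to 1.35. In OS-2 exosomes the genes expressed everywhere took 78.2% and 70.5% of counts and the 7 genes took 55.6% and 60.9%. Some of the 7 must therefore belong to that class, and leaving them out lowers its own sum as well as the library total. The ratios are of sums, in which abundant genes weigh most. Among genes with a count in the other exosomes, 81.1% of those expressed everywhere were lower in OS-2 exosomes in CPM. With TMM sizes it was 40.2%. The ratio of 1.26 thus goes against most single genes of its class. Of the genes silent everywhere 95.8% in CPM and 81.9% with TMM sizes were lower, and of the members 98.1% and 90.7%. The medians over single genes below place the members above the genes silent everywhere, by a margin that depends on the filter on low counts.

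A measure that needs no library scaling is the members' counts as a percent of the counts of the genes silent in all cells of the same library. It was 1.56% and 1.26% in OS-2 exosomes. The OS-1 exosome libraries gave 2.21%, 1.93%, 1.99% and 1.92%, those of OSCA-78 1.95% and 1.80%, those of OSCA-8 1.71% and 1.92%, and those of OSCA-32 1.83% and 1.93%. Both OS-2 libraries lay below the other 10, with a mean of 1.41 ± 0.210% (SD, n = 2) against line means of 1.81% to 2.01%. In cells the same percent ran from 408% to 735% in the lines that express the members. In OS-2 cells it was 8.40% and 2.07%. All 54 were compared as a sum because single members had few counts, with a median of 6 over both OS-2 exosome libraries.

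**Figure D2:**
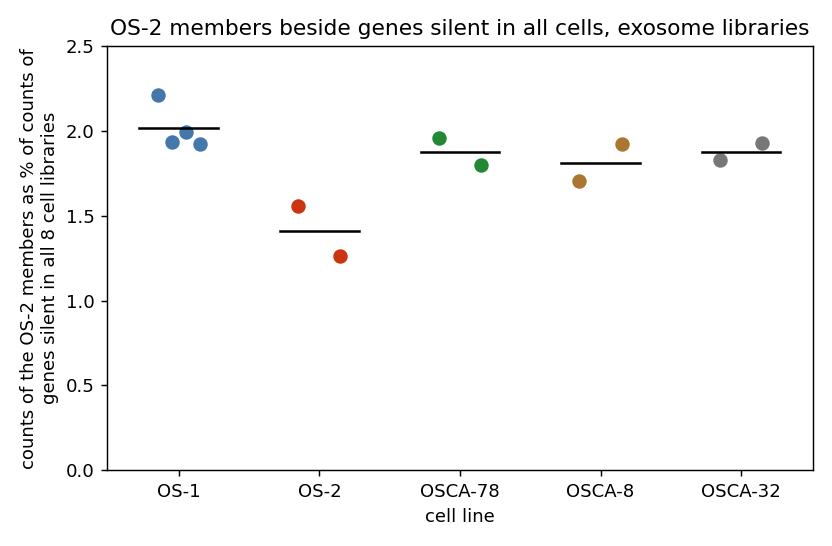
Counts of the 54 genes silent in OS-2 cells as a percent of the counts of the 8901 genes silent in all 8 cell libraries, for each exosome library by line. Points are libraries and bars are means, and the OS-2 libraries at 1.56% and 1.26% are the lowest.

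Levels also varied among the members. Mean levels in OS-2 exosomes ran from 0 to 36.9 CPM with a median of 6.33 CPM, and in the exosomes of the other 3 lines from 2.19 to 115 CPM with a median of 37.9 CPM. In OSCA-32 exosomes they ran from 0 to 204 CPM with a median of 43.6 CPM. Across the 54 genes, Spearman's rho was 0.82 between OS-2 exosomes and the exosomes of the other 3 lines. It was 0.85 between OSCA-32 and those lines. The order by cell level was a weaker guide: rho was 0.33 between OS-2 exosomes and the other lines' cells, and 0.22 between the other lines' exosomes and their own cells. Genes are not independent replicates, and a gene's length and base composition are the same in all libraries, so these values are descriptions. The CPM was under 0.5 of the other lines' mean for 51 of the 54 members (94.4%), as for 76.8% of all genes with a count in the other exosomes. With TMM sizes this fell to 23 members (42.6%) and 37.2% of all genes. The classes differed: in CPM it held for 88.6% of genes silent in all 8 cell libraries and 57.4% of those expressed in all 8. With TMM sizes these shares were 63.1% and 10.1%.

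**Figure D3:**
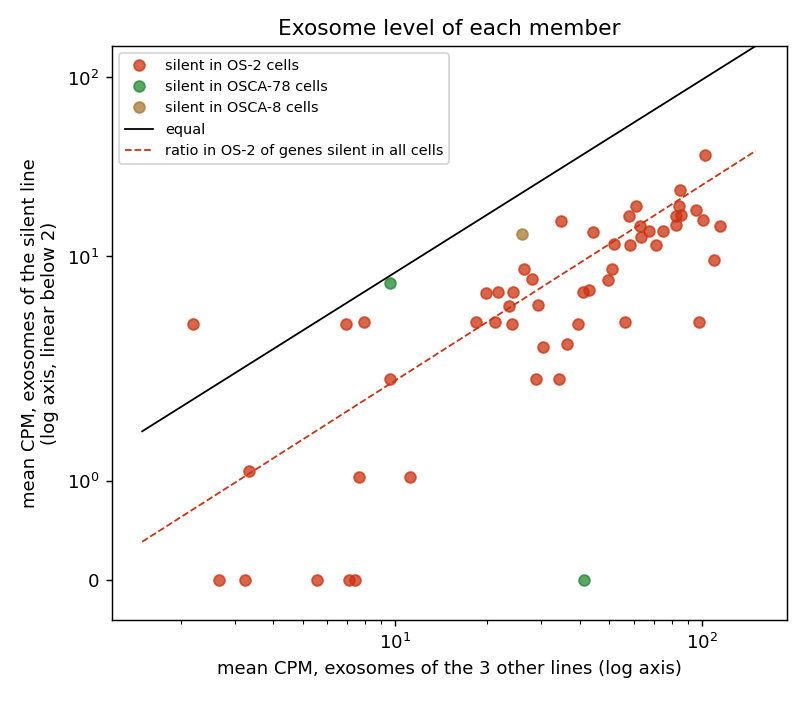
Mean CPM of each of the 57 genes in the exosomes of its silent line (vertical, log axis that is linear below 2) against the mean of the exosomes of the other 3 lines (horizontal, log axis). The solid line marks equal levels and the dashed line the OS-2 ratio of 0.260 of genes silent in all cells. Of the 54 OS-2 genes, 39 lie below the dashed line, and 6 genes of all 57 lie at 0.

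The gene by gene test compared OS-2 exosomes with the mean of the exosomes of OS-1, OSCA-78 and OSCA-8 over all genes (edgeR's quasi-likelihood test with TMM scaling). Of the 54 members, 44 passed its filter on low counts, and 4 were called lower and 0 higher at an adjusted p under 0.05. Over all 15083 genes tested, 4.85% were called lower and 12.2% higher, and 4 calls are too few to set the members apart from that background. At an unadjusted p under 0.05, 9 members were lower, as were 13.6% of all genes tested, and 0 were higher, and DESeq2 and limma voom also called 0 higher. A member low in OS-2 exosomes can pass the filter through the other exosomes only, so the unfiltered fit, which holds all 54, is used for the description. Its log2 fold changes had a median of -0.83, and 49 of 54 were negative. Fits of the 5 members at 0 in OS-2 exosomes depend on the prior count, and with these set at the limit of 3 counts the median was -0.73. The other 49 ran from -2.88 to 2.25, with 44 negative. The median was -1.15 for the genes silent in all 8 cell libraries, 0.31 for those expressed in all 8 and -0.43 for all genes. Only 51.9% of the genes silent in all 8 had an OS-2 exosome count, so the folds of many depend on the prior count. With the filter, the medians were -0.72 for 44 members and -0.87 for 2591 genes silent in all 8. With the unfiltered fit 4 members were called lower as well, as were 3.96% of all genes. Total count scaling instead called 39 members and 67.1% of all genes lower, with a median of -1.80 over all genes against -0.21 with TMM.

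**Figure D4:**
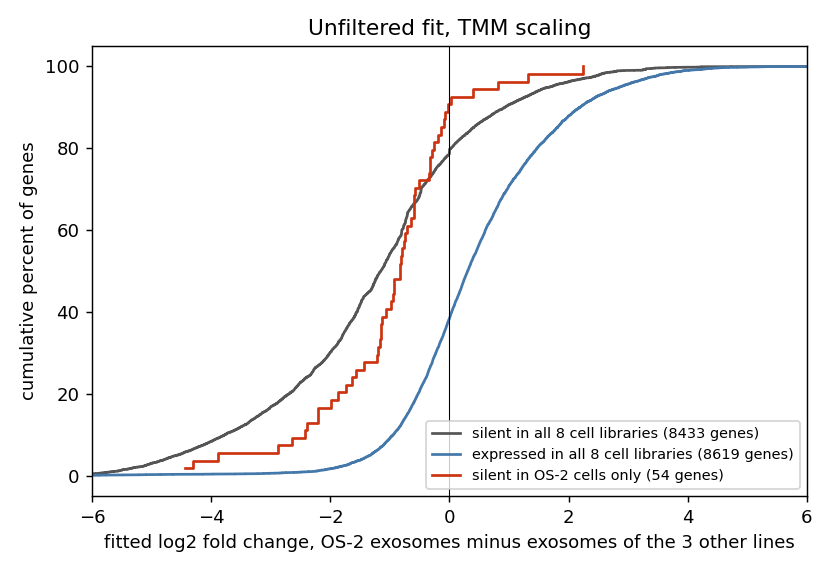
Cumulative percent of genes by fitted log2 fold change of OS-2 exosomes against the exosomes of the other 3 lines, in the unfiltered fit with TMM scaling. The curve of the 54 members (median -0.83) crosses that of the genes silent in all 8 cell libraries (median -1.15) and lies mostly to the left of those expressed in all 8 (median 0.31).

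The 4 members called lower are named because they are few, after their values were seen. ENSCAFG00000002645 had 4.15 and 4.41 CPM in OS-2 exosomes, 2 counts each, and 35.8 to 157 CPM in the 8 exosome libraries of the other 3 lines. Its log2 fold change of -2.79 had an SE of 0.57 (edgeR adjusted p = 5.61e-04), and it was called under all 23 alternatives run. At that level it entered the filtered fit through the other exosomes only, but the unfiltered fit called it too (edgeR adjusted p = 6.26e-05). ENSCAFG00000013288 had 12.5 and 6.62 CPM against 66.5 to 166 CPM, with a log2 fold change of -1.91 (SE 0.44, edgeR adjusted p = 0.00212). Without OS-2 exosome replicate 2 its adjusted p was 0.0640. The unfiltered fit also called ENSCAFG00000013288 (edgeR adjusted p = 8.23e-04), which likewise passed the filter through the other exosomes only. These genes have no overlap between OS-2 and the other libraries, yet neither is at 0 in OS-2 exosomes.

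The remaining calls were less firm. Both genes passed the filter through the other exosomes only, and the unfiltered fit called both. Its edgeR adjusted p was 0.0135 for ENSCAFG00000000097 and 0.0148 for ENSCAFG00000002879. ENSCAFG00000000097 had 20.8 and 8.82 CPM in OS-2 exosomes against 66.5 to 179 CPM, the highest mean of all members in the other exosomes. It had a log2 fold change of -1.35 (SE 0.42, edgeR adjusted p = 0.0238), and the adjusted p rose to between 0.0525 and 0.275 in 7 alternatives, among them the fits without either OS-2 exosome library. ENSCAFG00000002879 had 4.15 and 4.41 CPM against 15.4 to 102 CPM, with a log2 fold change of -2.12 (SE 0.71, edgeR adjusted p = 0.0380). It lost its call in 9 alternatives, with the replicate block at an adjusted p of 0.131 and without OS-2 exosome replicates 1 and 2 at 0.249 and 0.179. The count of OS-2 members called was 2 and 1 without those libraries, where 1.72% and 1.29% of all genes were called lower, and 2 without OSCA-8 exosome replicate 2, where 3.24% were.

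A wider count without a model gave a larger share. On TMM-scaled CPM both OS-2 exosome libraries lay below all 8 libraries of the other 3 lines for 12 of the 54 members (22.2%). The same held for 10.9% of all 24079 genes with an exosome count, 9.40% of the genes silent in all cells and 6.80% of those expressed in all cells. A gene at 0 in any of the 8 libraries cannot meet this, and the classes were not matched for level. In the other 3 lines' exosomes the members stood at 44.6 CPM per gene. Genes silent in all cells stood at 14.2 CPM and those expressed in all at 68.6 CPM.

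At the other end stood members with clear counts in OS-2 exosomes. ENSCAFG00000011524 was the most abundant, with 56.1 CPM (27 counts) in replicate 1 and 17.6 CPM (8 counts) in replicate 2. In OS-2 cells it had 2 and 0 counts, and in the other lines' exosomes 68.4 to 199.7 CPM. With TMM its log2 difference was 0.11 (SE 0.36, edgeR adjusted p = 0.881), but it was -0.05 with upper quartile scaling, -0.82 without OS-2 exosome replicate 1 and -1.49 with total counts (adjusted p = 0.00390). ENSCAFG00000030076 came next. It had 11 counts in each OS-2 exosome library, 22.8 and 24.3 CPM, and 1 and 0 counts in OS-2 cells. Other exosomes held 43.5 to 130 CPM of it, and with TMM the log2 difference was -0.24 (SE 0.42, edgeR adjusted p = 0.747) but -1.86 with total counts (adjusted p = 9.32e-04). Neither difference passed the test with TMM, whose standard errors leave room for changes of either sign.

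The 5 OS-2 members without a count in OS-2 exosomes were also scarce elsewhere. Their means in the other exosomes were 2.67 to 7.38 CPM. At the level of the other lines, 2.49 to 6.90 counts would have been present in both OS-2 libraries together, and at the ratio of genes silent in all cells 0.647 to 1.79 counts. With TMM sizes the limit of 3 counts lay above the level in the other exosomes for all 5, so no lower bound on a fall can be given there. ENSCAFG00000029492 was the most abundant of them in other exosomes, and in CPM its OS-2 level was lower by at least 2.30-fold. It had 0 counts in both cell and both exosome libraries of OS-2 and 7.38 to 15.4 CPM in the other cells. In exosomes it had 12.4 and 9.81 CPM in OSCA-78, 10.2 and 2.74 CPM in OSCA-8, and 18.2 CPM in OS-1 replicate 4 but 0 in the other 3 OS-1 libraries.

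OSCA-78 showed a different case. ENSCAFG00000015628 had 0 counts in both OSCA-78 cell libraries. It stood at 90.8 and 62.0 CPM in OS-1 cells, 182 and 165 CPM in OS-2 cells and 109 and 174 CPM in OSCA-8 cells. OSCA-78 exosomes had 0 counts of it in both libraries as well, and a further column headed as OSCA-78 exosomes, which matches no sample, was not used. The OS-1 exosome libraries held 15.4, 42.2, 58.5 and 47.7 CPM, the OS-2 libraries 16.6 and 13.2 CPM and the OSCA-8 libraries 48.6 and 87.6 CPM, so every library of the other lines had it. OSCA-32 exosomes held 12.2 and 42.0 CPM.

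The depth allowed this gene to be counted in OSCA-78. At the mean of the other exosomes, 41.3 CPM, 30.1 counts would have been present in the OSCA-78 libraries, and 42.8 at the ratio of the genes silent in all cells, which were 1.42 times as high in OSCA-78 exosomes as in the others. In CPM it was at least 10.05-fold lower, taking 3 counts over both libraries as the limit. Its fitted log2 fold change of -7.22 (SE 1.17, edgeR adjusted p = 0.00177) depends on the prior count and, as the gene was singled out for its absence and entered the fit through the other exosomes only, is a description. In this comparison 0.908% of all genes were called lower. The adjusted p was 0.152 without OSCA-78 exosome replicate 3 and 0.115 with limma voom, and DESeq2 gave it none. Of 5586 genes at its level or above in the other 3 lines' exosomes, 3 had no count in OSCA-78 exosomes, this gene included. As it was chosen for its absence, that count is a description. All 3 were under 0.5 CPM in OSCA-78 cells, where 572 genes of such an exosome level were. Among the 3 were 1 of the 373 genes silent in all 8 cell libraries and 0 of the 3861 expressed in all 8. Whether its DNA is present in OSCA-78 was not tested.

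**Figure D5:**
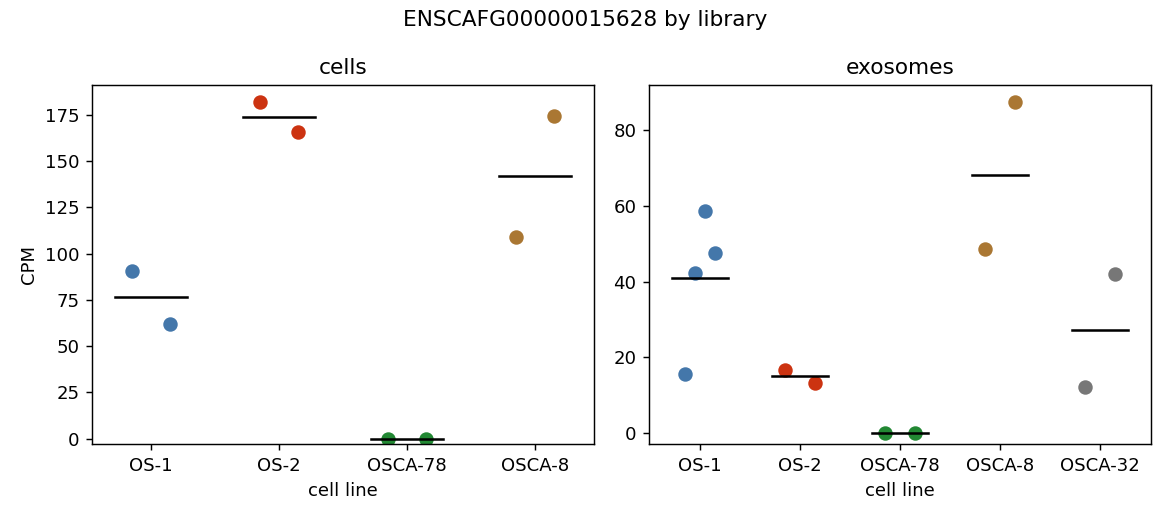
CPM of ENSCAFG00000015628 in each cell library (left) and exosome library (right) by line. Points are libraries and bars are means, and the vertical scales differ. Both OSCA-78 fractions lie at 0, and every library of the other lines lies above 0.

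The other OSCA-78 member kept its exosome counts, and is named as the only other gene of that line. ENSCAFG00000023925 had 1 and 5 counts in OSCA-78 cells and 11.4 to 31.8 CPM in the other cells. OSCA-78 exosomes held 9.33 and 4.90 CPM of it, 3 and 2 counts. The OS-1 exosome libraries held 7.72, 0, 6.27 and 0 CPM, the OS-2 libraries 14.5 and 15.4 CPM and the OSCA-8 libraries 12.8 and 8.21 CPM. The groups overlapped, and at 5 counts the gene did not pass the filter on low counts. In the unfiltered fit its log2 fold change of -0.78 had an SE of 1.09 (edgeR adjusted p = 0.825).

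The only OSCA-8 member was likewise still present in exosomes. ENSCAFG00000001450 had 4 and 0 counts in OSCA-8 cells, 9.97 and 7.89 CPM in OS-1 cells and 26.5 and 22.7 CPM in OS-2 cells. OSCA-78 cells differed between replicates, with 99.9 and 13.8 CPM. OSCA-8 exosomes held 7.67 and 19.2 CPM, 3 and 7 counts, and those of the other 3 lines 12.5 to 41.7 CPM. The ranges overlapped, and the ratio of means was 0.517, from 0.295 to 0.738 when either OSCA-8 library was left out. Its log2 fold change of -1.10 had an SE of 0.57 (edgeR adjusted p = 0.520), in a comparison where 0.0265% of all genes were called lower.

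Across the 3 lines, 51 of 57 members had at least 1 count and 45 at least 3 counts in the exosomes of the line in whose cells they were silent. Thinned to the smallest exosome total of 259078 counts, 51 still did. Of the 8 members without any cell count in their silent line, 5 had exosome counts. Among the 6 without exosome counts, the OSCA-78 gene had the highest level in the other exosomes, 41.3 CPM against at most 7.38 CPM for the OS-2 genes.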

How the data were processed

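Per the labels and the table itself, the authors deposited whole-number counts, one row for each Ensembl gene. The submitters' processing notes list kallisto 0.43.0, Trimmomatic 0.33.0 and FastQC 0.11.5, and genome builds of dog (CanFam3.1) and mouse (GRCm38.p5), with no role for any. How reads of overlapping or near-identical genes, or of either strand, were counted is not given in the sources used here, which leaves such genes uncertain. Libraries were made with a stranded total RNA kit for low input, per the labels' protocols. There was 1 column, headed as OSCA-78 exosomes, that matched no sample and was not used. Of the identifiers, 0 of 24579 matched the RefSeq table.

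CPM used library totals. Exosome libraries (12) were fitted with a coefficient per line in edgeR 4.0.16 (limma 3.58.1, R 4.3.3): TMM, filterByExpr (minimum count 10, about 24.6 CPM), robust quasi-likelihood tests, Benjamini-Hochberg over all genes. The contrast left out OSCA-32, whose cells were not measured. DESeq2 1.42.0 and limma voom were alternatives. The fit was checked on simulated counts. Intervals are exact Poisson and cover counting error only. Replicate pairs differed beyond the Poisson noise of independent counts (chi-square per degree of freedom at least 1.79), so none was counted as a copy. Fragments counted as 2 would raise this value too, which was not tested. Members, gene classes and lists were chosen with earlier results of these data known, and gene lists by name could not be used. Without names, the rule for named genes gave the 2 members highest in their silent line's exosomes and the 2 absent there that were highest in other exosomes. Further genes are named where a count was 5 or fewer. Comparisons of classes across scalings were chosen after seeing the data.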

Additional observations from a re-analysis of the deposited data

Results flagged for a closer look

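ENSCAFG00000029492, one of the OS-2 members without an OS-2 exosome count, stood apart in OS-1 exosome replicate 4 with 18.15 CPM, which is 8 counts, while the other 3 OS-1 exosome libraries had 0. Tests of this kind were made on 13 measures in OS-1 exosomes, the only group with enough libraries, and chance flags about 1 in 20.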

How the results depend on the processing

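The number of genes that met the rule followed its limits. It was 21 with a silent limit of 0.25 CPM and 110 with 1 CPM, 139 with an expressed limit of 2.5 CPM and 17 with 10 CPM, against 57. It ran from 59 to 184 when a cell library was left out, and in each case held all 57. Members with a count in their silent line's exosomes were 44 to 51 when an exosome library was left out, and 5 of 8 among those without any cell count. The summed ratio of OS-2 was 0.399 without genes over 1% of an exosome library, 0.544 with TMM sizes and 0.146 to 0.246 when an exosome library was left out. That of OSCA-78 was 0.0 without its member with the most OSCA-78 exosome counts, and also 0.0 over members without cell counts, since either leaves ENSCAFG00000015628 alone, and 0.096 to 0.183 with a library left out. OS-2 members called lower were 39 with total count scaling (67.1% of all genes), 2 with DESeq2 (1.73%), 2 with limma voom (1.07%) and 1 to 4 when a library was left out (1.29% to 4.93%). With the replicate block they were 3 (5.51%). Deviations of libraries sharing a replicate number had a median correlation of 0.002 over 17 pairs (-0.047 to 0.316). The 2 pairs over 0.1 were of OS-1 with OSCA-78, at 0.316 for replicate 2 and 0.275 for replicate 3. What these libraries shared was not tested. The log2 fold change of ENSCAFG00000011524 turned from 0.11 to -1.49 with total counts, -0.05 with upper quartile scaling and -0.82 without OS-2 exosome replicate 1, and was 0.62 without replicate 2. Causes were not tested beyond the alternatives' own construction.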

Other observations

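Low counts in the cell libraries favoured the value 2, which bears on what a silent gene's trace counts mean. In 8 of 8 cell libraries more genes had exactly 2 counts (718 to 865 genes) than exactly 1 (443 to 615 genes). In exosome libraries this was so in 5 of 12. Intervals above treat each count as independent, and whether some fragments were counted as 2 was not tested.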
